A study of Mus musculus with 2 samples.

Results

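Havcr1, the gene for kidney injury molecule 1 (KIM-1, also called TIM-1), was followed across the nephron segments of the mouse kidney after ischemia/reperfusion. It was found by its symbol as 1 of the 32285 genes listed in the deposited matrices, of which 25365 had at least 1 UMI (a unique molecular identifier, marking 1 captured RNA molecule) in the cells kept. The kidneys came from wildtype male C57BL/6J mice, with no transgene or deletion, aged 19 weeks. The control library was made from a contralateral uninjured kidney, and the ischemia library from a kidney clamped for 27 min and collected after 24 h of reperfusion, as the labels give it (the general surgical methods of the study name a clamp 1 min shorter). Each condition was 1 scRNAseq library from 1 kidney, and neither the labels nor the methods say whether both kidneys came from the same animal. No difference between the conditions could therefore be tested. All intervals below are exact 95% intervals that cover counting error only, and UMIs of the same cell are not independent, so that they are narrower than the spread between kidneys would be.

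KIM-1 is a type I membrane protein of the TIM (T cell immunoglobulin and mucin domain) family. It is scarcely made in the healthy kidney and appears on the apical side of proximal tubule cells after injury, where its immunoglobulin-like domain binds phosphatidylserine on dying cells and lets an epithelial cell engulf them. Its ectodomain is shed into the urine, which is why it is used as a marker of tubule injury. The proximal tubule (PT) runs from the S1 and S2 segments in the cortex to the S3 segment in the outer stripe of the outer medulla, a region known for its sensitivity to ischemia. The thin limb, the thick ascending limb (TAL), the distal convoluted tubule with the connecting tubule (DCT-CNT), and the collecting duct with its principal cells (CD-PC) and intercalated cells (IC) follow in that order.

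Havcr1 (ENSMUSG00000040405) lies on the plus strand of mouse chromosome 11 at 46735080 to 46779578 (GRCm38), and its annotation holds 4 transcripts with up to 8 exons. The other family members are neighbours, with Timd2 28.0 kb before it on the minus strand, Timd4 31.2 kb after it and Havcr2 254 kb before it. Since near-identical copies can share reads, the transcripts were compared by stretches of 31 bases: 135 of the 2306 such stretches of Havcr1 were also in Timd2, and 0 were in Havcr2 or Timd4. The longest shared stretch that lies wholly in the coding part is shown because a read lying within it could not be told from Timd2. It is 53 bases long, lies in exon 3 of Havcr1-201 at chr11:46756194-46756246 on the plus strand, and starts at base 463 of the transcript (no capitals are used, since all of its bases are shared):
Havcr1-201 and Timd2: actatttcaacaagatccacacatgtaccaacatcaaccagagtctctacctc
It ends 1377 bases before the 3' end of this 1892-base transcript, whereas the assay reads RNA near its 3' end. In the 565-base transcript Havcr1-204, however, 52 bases of this stretch lie at the very 3' end. A longer shared stretch, of 115 bases in Havcr1-202, spans the edge of the coding part and ends 1764 bases before the 3' end of that transcript. A shorter shared stretch of 31 bases lies in the 3' UTR, 225 bases before the end, so that part of the reads could still be shared and values of both genes are uncertain to that extent.

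After removing barcodes with few genes or UMIs or with over 55% mitochondrial UMIs, 12586 control and 13116 ischemia cells were kept of 15110 and 15257 barcodes, with 124679362 and 128733541 UMIs and a median of 3839 and 2138.5 UMIs per cell. Of all barcodes, 88 occurred in both libraries, and 58 did so among the kept cells. Leaving out those 58 moved no main value by more than its interval. Cells were clustered with Havcr1 left out of the genes used, and clusters were named from marker lists, giving 3917 control and 2766 ischemia PT-like cells. Cluster 0 (10455 cells with a median of 836 UMIs, richest in PT markers) and cluster 4 (1585 cells with TAL and DCT markers) did not meet the naming rule and stayed unnamed.

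In PT-like cells Havcr1 was at 7.17 CPM (Havcr1 UMIs per 1000000 UMIs of these cells; 95% interval 6.57 to 7.82, 515 UMIs) in the control library and at 416 CPM (411 to 421, 28297 UMIs) in the ischemia library. The ratio of ischemia to control was 58.0 (53.2 to 63.4). Havcr1 UMIs were present in 4.67% of PT-like cells before thinning in the control library, compared to 68.1% after ischemia. With each cell thinned to 1000 UMIs, so that depth was equal, the shares were 0.637% (24 of 3765 cells) and 23.3% (636 of 2725 cells, 21.8 to 25). For comparison, 3.49% of thinned TAL-like and 10.6% of thinned EC-like (endothelial) cells held a UMI in the ischemia library. The share in T and NK-like cells was 13.9%. Median depth before thinning was 18365 UMIs in PT-like and 24639 in TAL-like cells. PT-like cells held 83.1% of the 620 Havcr1 UMIs of the control library and 82.3% of the 34389 of the ischemia library. By mitochondrial share the ratio was 15.6 (12.6 to 19.5) in PT-like cells under 10%, 53.5 at 10 to 25% and 64.9 at 25 to 55%. In the cells under 10% the levels were 21.5 CPM (control, 91 UMIs) and 335 CPM (ischemia). Without the top cell this control level was 13.6 CPM. The control level rests on few cells. Without the top 1% of PT-like cells by Havcr1 in each library the ratio was 148, and with clusters made without integrating the libraries PT-like cells held 6.70% of the ischemia library's Havcr1 UMIs, because a cluster of 65 control and 1277 ischemia cells then stayed unnamed, and 79.2% when that cluster was counted as PT-like.

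**Figure D1:**
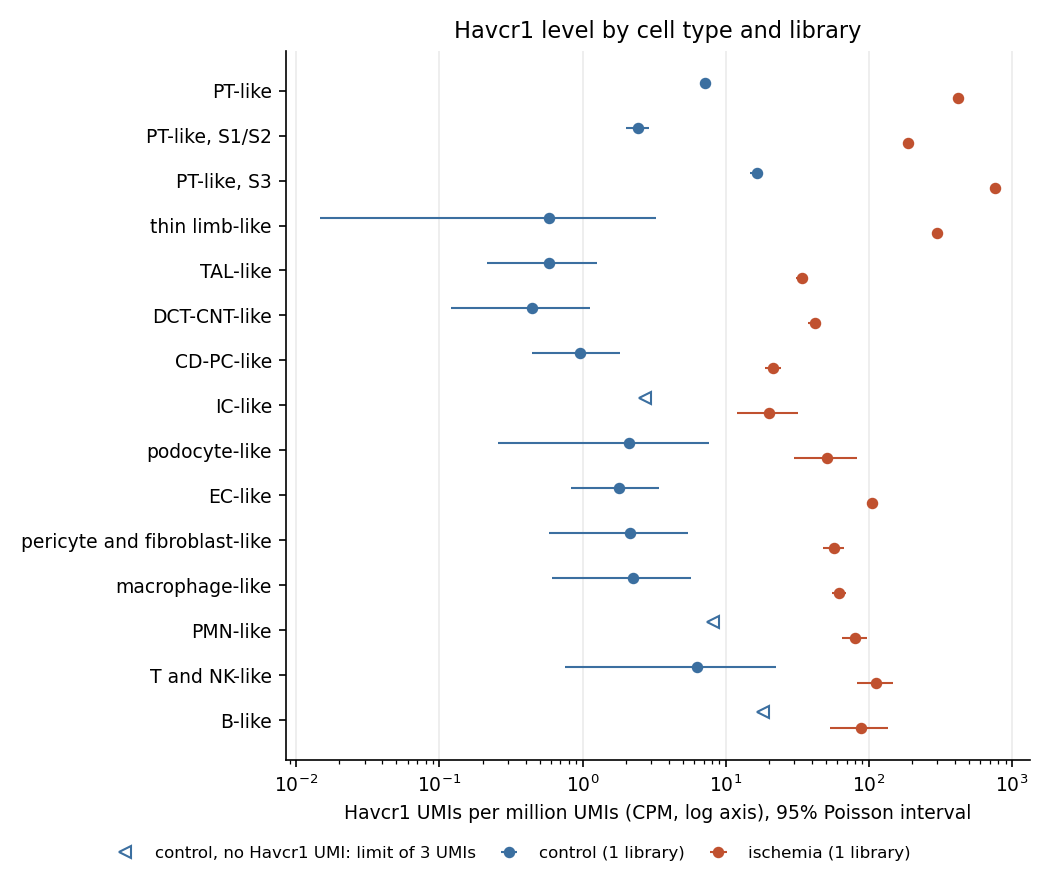
Havcr1 level (CPM, log axis) in each named cell type of the control library (blue) and the ischemia library (orange), 1 library each, with exact 95% Poisson intervals. Open triangles mark the limit of 3 UMIs where the control had none. S3 cells of the ischemia library were highest at 761 CPM, and thin limb-like cells, at 298 CPM, stood above S1/S2 cells at 186 CPM.

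Along the PT, Havcr1 was higher in S3 than in S1/S2 cells in both libraries. Cells were called from the balance of 6 S1/S2 genes (such as Slc5a2, the low-affinity glucose transporter SGLT2) and 7 S3 genes (such as Slc7a13, an aspartate and glutamate transporter), which do not include Havcr1. In the control library S1/S2 cells were at 2.42 CPM (1.99 to 2.91; 114 UMIs in 2229 cells) and S3 cells at 16.4 CPM (14.8 to 18.1; 398 UMIs in 1507 cells), a ratio of S3 to S1/S2 of 6.78 (5.49 to 8.42). In the ischemia library S1/S2 cells were at 186 CPM (182 to 190; 7502 UMIs in 1470 cells) and S3 cells at 761 CPM (751 to 772; 20610 UMIs in 1120 cells), a ratio of 4.09 (3.99 to 4.20). S3 cells held 77.7% and 73.3% of the Havcr1 UMIs of all cells given a segment. Within segments the ratio of ischemia to control was 76.9 (63.9 to 93.4) in S1/S2 and 46.4 (42 to 51.4) in S3. The control ratio of the segments depends on a few S3 cells. It was 2.89 without the top 1% of cells, with S3 at 4.61 and S1/S2 at 1.59 CPM, against 3.79 in the ischemia library under the same step. The rise from control to ischemia was then larger in S3 than in S1/S2. It was also larger in S3 without integration (segment ratios of 4.21 and 6.31) and with a mean of per-cell CPM (3.02 and 3.59). Which segment rose more thus depended on the setting. A stricter call that kept only cells clearly of one kind (scaled S3 share of at most 0.25 or at least 0.75) gave segment ratios of 15.2 (control) and 6.60 (ischemia). Naming segments by sub-cluster gave 13.9 and 8.62. That naming counted all of sub-cluster 2 as S3, although it had cells of both calls and held 66.9% of the ischemia library's Havcr1 UMIs. The sub-cluster ratios are therefore not a comparison of segments alone. S3 was the higher segment under every other setting tried.

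The segment calls rest on genes that were themselves lower in the ischemia library. Among the S3 genes 4 of 7 were at least 2-fold lower in PT-like cells, with a median log2 ratio of -1.20, and among the S1/S2 genes 1 of 6, with a median of -0.71 (3.17% of the 12324 genes measured in PT-like cells were at least 2-fold lower, and 5.79% at least 2-fold higher, with a median log2 ratio over all of them of 0.10). Cells close to the cut, with a scaled S3 share of 0.4 to 0.6, made up 14.5% of control and 11.6% of ischemia cells called. The part of this in the segment ratios was not tested.

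A finer division of the S3 share showed a graded level in the ischemia library. From the lowest to the highest of 8 bins Havcr1 was at 105, 166, 264, 386, 478, 597, 701 and 1143 CPM, each above the bin before it and with intervals that did not overlap. Those intervals leave out the spread between cells. With thinning, the share of cells with a Havcr1 UMI did not rise at every step. It was 12.1, 9.51, 16.3, 17.5, 27.4, 24.8, 36.3 and 49.2% in the same bins. In the control library the order of CPM was not kept throughout: the bins were at 0.913, 1.78, 6.07, 2.51, 7.68, 11.6, 25 and 14.6 CPM. Without its top cell the bin at a share of 0.6 to 0.75 was at 4.82 CPM and the highest bin at 9.66 CPM. When an S2 list was added for a 3-way call, the ischemia levels were 180 CPM in S1, 278 CPM in S2 and 931 CPM in S3, and the control levels 1.84, 6.12 and 22.9 CPM.

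**Figure D2:**
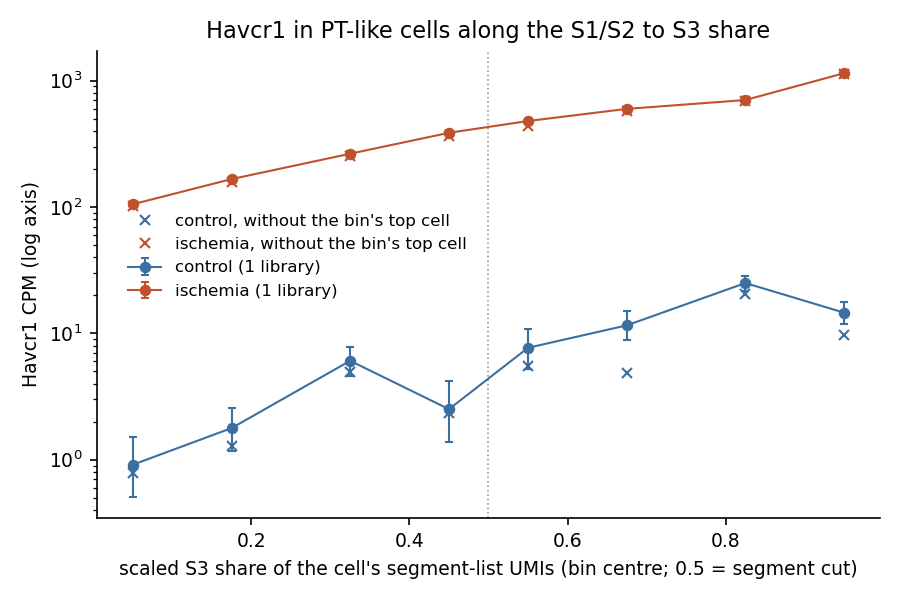
Havcr1 level (CPM, log axis) in PT-like cells binned by the scaled S3 share of their segment-list UMIs, for the control (blue) and ischemia (orange) libraries, with exact 95% Poisson intervals, and with crosses for each bin without its top cell. The ischemia line climbs from 105 to 1143 CPM over 8 bins, whereas the control line lies between 0.913 and 25 CPM, and the dotted line at 0.5 is the segment cut.

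Havcr1 was spread unevenly over the cells of a segment. In ischemia PT-like cells the lowest count was 0, the median 2, the 90th percentile 29 and the highest 245 UMIs per cell. The share of cells at 0 was 31.9%, whereas 8.16% would be at 0 if every cell had the same level for its depth. The 274 cells (9.91%) with 30 or more UMIs held 67.4% of the Havcr1 UMIs. S1/S2 cells had a median of 1, a 90th percentile of 13 and a maximum of 137 UMIs. S3 cells had a median of 4, a 90th percentile of 57 and a maximum of 245 UMIs, and the 216 of them (19.3%) with 30 or more held 76.2% of the S3 total. With thinning, a Havcr1 UMI was found in 12.8% of S1/S2 and 36.0% of S3 cells of the ischemia library, and in 0.274% and 1.23% of those of the control library.

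**Figure D3:**
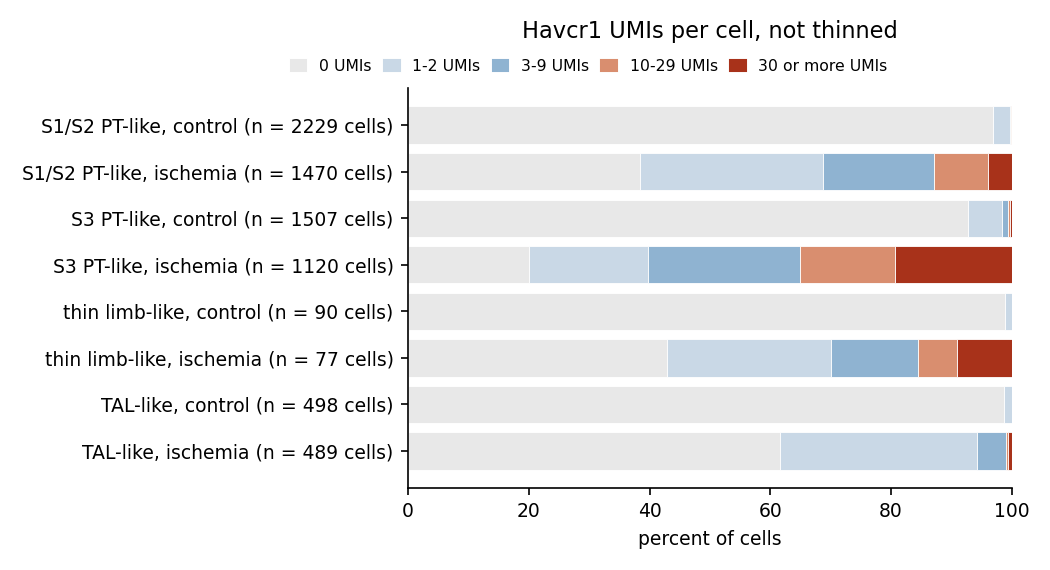
Share of cells (percent) by number of Havcr1 UMIs per cell, not thinned, in S1/S2, S3, thin limb-like and TAL-like cells of each library (1 library each, cells in parentheses). Dark red, 30 or more UMIs, covers 19.3% of S3 cells of the ischemia library and is nearly absent from TAL-like cells, and grey is cells with none.

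Among 8 sub-clusters of the PT-like cells, sub-cluster 2 carried most Havcr1. It was at 110.6 CPM in 104 control cells and 671 CPM in 1021 ischemia cells, and held 280 of the 515 control PT-like UMIs and 66.9% of all Havcr1 UMIs of the ischemia library. Its ratio of ischemia to control was thus 6.07 (5.39 to 6.85), lower than the ratio in each of the other sub-clusters, of which sub-cluster 6 was nearest at 12 (9.30 CPM rather than 24.4 CPM in its control cells without the top cell). The control level of sub-cluster 2 also rests on few cells, as 35 of 104 had a Havcr1 UMI. Most of its 280 UMIs were in cells with 34, 34, 32, 30, 20, 12, 11, 11 and 11. Without the top cell it was at 98.6 CPM, and the ratio without all of these cells was not computed. Sub-cluster 3 had the lowest levels, 0.683 and 34.5 CPM, although its ischemia cells were deep (a median of 41414 UMIs). Sub-cluster 2 was not a segment: its ischemia cells were 469 S1/S2, 496 S3 and 56 without a call, and its control cells 65, 38 and 1. With sub-cluster 2 left out, the remaining PT-like cells had a ratio of 46.4, a thinned share with a Havcr1 UMI of 13.8% and 46.6% of the remaining Havcr1 UMIs of the ischemia library.

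Scattered cells of the uninjured kidney also carried Havcr1 at high counts. In the control library 11 PT-like cells had 10 or more UMIs (38, 34, 34, 32, 30, 20, 12, 11, 11, 11 and 11) and together held 244, or 47.4%, of the PT-like total, and the remaining control cells were at 3.79 CPM. Of these cells 10 were called S3 and 1 S1/S2, and 9 were in sub-cluster 2. The genes below were chosen for description after their values were seen. Plin2, which coats lipid droplets, was at 879 CPM in the 11 cells against 69.0 CPM in the other control PT-like cells, with UMIs in 11 of 11. Tnfrsf12a, the receptor for TWEAK, was at 224 against 20.4 CPM with UMIs in 9 of 11, and Spp1, which encodes osteopontin, at 8917 against 1704 CPM with UMIs in 11 of 11. Sox9, a transcription factor of regenerating tubule cells, was at 59.6 against 0.71 CPM but had UMIs in 4 of 11. Slc34a1, the main phosphate transporter of the PT brush border, was at 842 against 2683 CPM. Lrp2, which encodes the endocytic receptor megalin, was at 932 against 1349 CPM. The summed PT marker list differed little, at 25969 against 25670 CPM. For Cd44 27 of 30 UMIs, for Vcam1 all 33 and for Lcn2 26 of 33 were from 1 cell each, and Vim had none. For Spp1 1227 of 2393 UMIs were from 1 cell.

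Beyond the PT, the order of levels in the ischemia library was not the order of the segments. Thin limb-like cells were at 298 CPM (277 to 320), between S3 and S1/S2. TAL-like cells were at 34.3 CPM (31.1 to 37.7) and DCT-CNT-like cells at 41.7 CPM (37.3 to 46.5), with overlapping intervals. CD-PC-like cells at 21.5 CPM (18.9 to 24.5) and IC-like cells at 20.1 CPM (11.9 to 31.8) were lowest, and their intervals overlapped too. The CD-PC-like cluster (849 cells over both libraries) had IC as its second marker list, with a score of 3.57 against 4.65 for CD-PC. Aqp6 was among its leading genes, and also led an IC cluster of 187 cells found with finer clustering. CD-PC-like cells may thus include intercalated cells, and these levels do not compare principal with intercalated cells. Outside the tubule the levels were 112 CPM in T and NK-like, 104 CPM in EC-like (endothelial), 87.9 CPM in B-like, 79.9 CPM in PMN-like (neutrophil), 62.1 CPM in macrophage-like, 56.7 CPM in pericyte and fibroblast-like and 51.3 CPM in podocyte-like cells. Named types outside the nephron's tubule were thus above TAL-like cells, except that the podocyte-like interval (29.9 to 82.1) overlapped theirs. Depth differed, with a median of 24639 UMIs in TAL-like, 4260 in EC-like and 3405 in T and NK-like cells. The unnamed cluster 4, with TAL and DCT markers and a median of 3497 UMIs, was at 89.8 CPM in the ischemia library. The part of depth and of these unnamed cells in the order was not tested. In the control library each named type outside the PT had at most 9 UMIs, from 0 in IC-like, PMN-like and B-like cells to 6.25 CPM (2 UMIs) in T and NK-like cells. For IC-like cells 3 UMIs, the number that a count of 0 allows, would be 2.73 CPM.

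The level in other cell types went with the amount of PT marker RNA found in them. Per 1000 UMIs of the PT marker list, PT-like cells of the ischemia library had 23.9 Havcr1 UMIs. The other named types, thin limb apart, had between 13.3 (IC-like) and 39.0 (TAL-like). In the control library the named types had between 0 and 0.709. Thin limb-like cells of the ischemia library had 488 (453 to 525). Whether free RNA from PT cells gave the UMIs in other types was not tested directly.

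**Figure D4:**
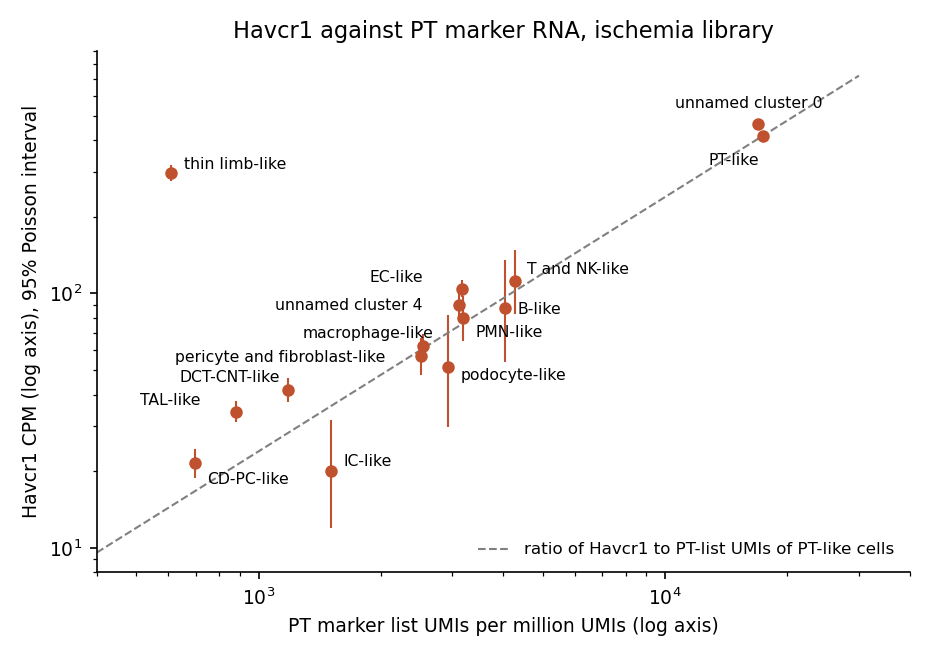
Havcr1 level (CPM, log axis, with exact 95% Poisson intervals) against the summed PT marker list (CPM, log axis) for each cell type of the ischemia library. The dashed line is the ratio in PT-like cells, 23.9 Havcr1 UMIs per 1000 PT-list UMIs; most types lie close to it, and thin limb-like cells, with 488, lie far above it.

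In thin limb-like cells of the ischemia library 12 of 77 cells had 10 or more UMIs (159, 113, 85, 60, 58, 54, 43, 21, 21, 18, 12 and 10) and held 654 of 736 UMIs, or 88.9%. The 90 control cells had 1 UMI, so that the ratio of 513 has an interval from 91.8 to 20284. The 12 cells were no richer in the summed PT marker list than the rest, at 575 against 626.5 CPM, and each held 26 to 1115 UMIs of the thin limb list. Of the few segment genes measured, 1 of 1 S1/S2 genes (2.09-fold) and 1 of 2 S3 genes (3.31-fold) were at least 2-fold higher in them. The other 65 cells were at 48.8 CPM. The 12 cells were deeper, with a median of 53313 UMIs against 16388. They differed from the rest within the thin limb list: Fst, which encodes the activin antagonist follistatin, was at 4640 against 582 CPM (8.0-fold), whereas the urea transporter Slc14a2 (0.364-fold) and the tight junction gene Cldn4 (0.0879-fold) were lower. Of 10 measured injury genes 0 were at least 2-fold higher and 4 were lower, with Lcn2 at 248 against 1299 CPM (2.53% of 3920 measured genes were at least 2-fold higher and 3.11% lower in this comparison, whose cells were picked after their values were seen). With the libraries compared, 7 of 10 injury genes were at least 2-fold higher in thin limb-like cells of the ischemia library (4.27% of 5832 genes higher and 6.05% lower). Mature PT genes, 9 of 9 of them at least 2-fold lower there, are no markers of the thin limb, and the summed PT list was lower in TAL-like cells too (2011 and 880 CPM) as it was in thin limb-like cells (1825 and 610 CPM), so that nothing particular to the thin limb is read from them.

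Single cells with high counts were also present farther along. Among 489 TAL-like cells of the ischemia library 5 had 10 or more UMIs (46, 41, 37, 16 and 10). In the same order they held 15, 161, 615, 483 and 9 UMIs of the TAL list and 145, 12, 59, 12 and 13 of the PT list. The TAL-like level without the top cell was 30.8 CPM. In DCT-CNT-like cells the top cell had 116 UMIs together with 1675 PT-list UMIs, and the level without it was 26.9 CPM. In CD-PC-like cells the top cell had 41 UMIs together with 488 PT-list UMIs, and the level without it was 17.9 CPM. The doublet caller marked no cell in either library. With the 8% of barcodes that had the top doublet scores left out, the level was 28.2 CPM (25.3 to 31.4) in 464 TAL-like cells and 91.3 CPM in 965 EC-like cells, and 298 CPM in thin limb-like cells, of which it removed none. Lcn2, which encodes NGAL, another injury marker, had a different order in the same library, with 5348 CPM in CD-PC-like, 5263 CPM in TAL-like, 2819 CPM in DCT-CNT-like and 41.0 CPM in PT-like cells.

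Of the other TIM genes only Timd2, which encodes a ferritin receptor, was measured in PT-like cells at the minimum of 100 UMIs. Its PT-like level was 67.7 CPM (control) and 188 CPM (ischemia), a ratio of 2.78 (2.69 to 2.88). By segment it was at 65.4 and 152 CPM in S1/S2 and at 72.6 and 243 CPM in S3. Havcr2, which encodes TIM-3, had 1 and 8 UMIs in PT-like cells and was at 82.0 and 89.0 CPM in macrophage-like cells. Timd4, which encodes a phosphatidylserine receptor of resident macrophages, was at 1.12 and 2.24 CPM there, with 2 and 12 UMIs.

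Genes that take part in shedding, signalling or control of KIM-1 differed much less between the libraries than Havcr1. In PT-like cells 0 of 5 measured passed 2-fold. With 5.79% of all genes higher and 3.17% lower, a count of 0 among 5 genes is near the background. Stat3, a transcription factor that acts on the Havcr1 promoter, had a ratio of 1.94 (1.86 to 2.02), with 2.15 in S3. The sheddases Adam10 and Adam17 had ratios of 1.35 and 1.09. Gna12, a G protein subunit that KIM-1 binds, was at 0.756 and Nr4a1 at 0.685. Selp was below the minimum. Among 18 genes for the recognition and uptake of apoptotic cells 11 were measured and 3 were at least 2-fold higher, against 5.79% of all genes: Mfge8, a bridge between phosphatidylserine and integrins (2.05 and 15.3 CPM, 7.49-fold), Pros1, a ligand of TAM receptors (3.10-fold) and Itgb3, which lay on the threshold (2.0-fold, 1.5 to 2.68). The uptake receptor Mertk had a ratio of 0.533, with 39.4 CPM in PT-like cells of the control library and 21.0 CPM in those of the ischemia library. In S3 2 of 9 measured genes of this list were higher (5.19% of all genes there), and in S1/S2 3 of 11 (5.34%).

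Tubule injury genes were higher together with Havcr1. In PT-like cells 14 of 16 measured were at least 2-fold higher in the ischemia library, against 5.79% of all genes, with a median log2 ratio of 2.39. Sox9 was at 0.933 and 33.2 CPM (35.5-fold), Anxa2 at 2.62 and 84.8 CPM (32.4-fold) and Krt20, a keratin of stressed epithelium, at 0.348 and 10.9 CPM (31.2-fold). Spp1 was 10.2-fold, Lcn2 7.10-fold and Tnfrsf12a 6.94-fold higher. Lcn2 in PT-like cells of the ischemia library, at 41.0 CPM, was the lowest of all named types there. IC-like cells were at 44.7 CPM with an overlapping interval, EC-like cells at 173 CPM and TAL-like cells at 5263 CPM. Whether free RNA from other cells gave the Lcn2 UMIs of PT-like cells was not tested. Cd44 was lower (13.7 and 6.32 CPM, 0.463-fold) and Vcam1 was at a ratio of 1.55, while Krt19 was below the minimum. Over all PT-like cells Havcr1, with its ratio of 58.0, exceeded each of these. In S1/S2 cells it also did, at 76.9 against 34.4 for Sox9, the highest of the list there. In S3 cells it did not: Anxa2 was at 49.7 (38.9 to 64.6) and Havcr1 at 46.4 (42 to 51.4), with overlapping intervals. The count of injury genes at least 2-fold higher was 14 of 16 in S1/S2 cells (5.34% of 11488 genes higher and 2.34% lower). In S3 cells the count was 14 of 16 (5.19% of 10618 higher and 3.46% lower). Of 18 genes of mature PT transport and metabolism 10 were at least 2-fold lower, against 3.17% of all genes, and 0 higher, with a median log2 ratio of -1.03. G6pc and Pck1, enzymes of gluconeogenesis, were at 0.246-fold and 0.293-fold, the endocytic receptor Lrp2 (megalin) at 0.466-fold and Slc34a1 at 0.489-fold. The count of lower genes was 10 of 18 in S1/S2 and 11 of 18 in S3.

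Within the ischemia library, PT-like cells were split by the Havcr1 UMIs left after thinning to 1000 UMIs. Cells with 0 after thinning were not without Havcr1: at full depth they held 10125 UMIs at 197 CPM, against 1800 CPM in the cells with 3 or more, so that the split is between lower and higher levels. The 90 cells with 3 or more UMIs after thinning had a median S3 share of 0.848, against 0.289 in the 2089 cells with 0, and S1/S2 genes were at least 2-fold lower in 6 of 6 and S3 genes higher in 3 of 5 measured (2.15% of 9750 genes were higher and 4.47% lower). Their full depth also differed, with medians of 34774 and 18772 UMIs. Of 15 injury genes 6 were higher, and of 18 mature PT genes 8 were lower and 1, Kap, higher. The genes with the highest ratios were Chsy3 (6.41), Osmr, the oncostatin M receptor (6.19), Vtcn1 (5.76), Prex2 (5.47), Anxa2 (4.65), Hsd17b2 (4.5), Kcnh1 (4.41), Clcf1, a cytokine of the interleukin-6 family (4.29), Cp, which encodes ceruloplasmin (4.25), and Krt20 (4.21). Within segments, comparing cells with 1 or more UMIs to cells with 0, Osmr kept ratios of 2.53 in S1/S2 and 2.34 in S3 and Vtcn1 of 2.96 and 2.31. Prex2 (0.70 and 1.91) and Kcnh1 (0.48 and 2.13) were below 1 in S1/S2. The lowest ratios were those of Slc34a3, a second phosphate transporter (0.0129), Dgkb (0.0291), Unc13c (0.0394), Rtn4rl1 (0.0408), Rbfox1 (0.0448) and Rnase4 (0.0495), each with 1 to 4 UMIs in the Havcr1-high cells, and Chrna7, Rbp4, Slc2a12 and Tmem26 had none there. For Slc34a3 the within-segment ratios were 0.414 in S1/S2 and 0.713 in S3.

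Within each segment call, some injury genes were higher and some mature PT genes lower in the cells with more Havcr1, and most members of both lists did not pass 2-fold. The calls left a difference in position, with median S3 shares of 0.863 against 0.808 in S3 and 0.139 against 0.111 in S1/S2, and its part in the ratios was not tested. The cells with 0 after thinning were at 109 CPM of Havcr1 in S1/S2 and 395 CPM in S3 at full depth, against 688 and 1284 CPM in those with 1 or more. In S1/S2 (187 cells with 1 or more UMIs after thinning against 1272 with 0) 6 of 15 injury genes were at least 2-fold higher, where 0.715% of 9232 genes were higher and 1.13% lower: S100a6 (5.34), Anxa2 (4.03), Krt20 (3.70), Krt18 (2.52), Vim (2.39) and Cdkn1a (2.29), which encodes the cell cycle inhibitor p21. In S3 (401 against 714 cells) 3 of 13 were higher, where 0.5% of 8193 genes were higher and 0.378% lower: S100a6 (3.22), Vim (3.12) and Anxa2 (2.37). Mature PT genes were lower in 4 of 17 and 3 of 17, the latter being Pck1 (0.439), G6pc (0.313) and Slc5a12 (0.328), a lactate transporter that is also 1 of the 6 S1/S2 genes behind the segment call. Mfge8 was the uptake gene that passed 2-fold in each segment, at 2.91 and 2.16. Lcn2 (1.10 and 0.876), Clu (0.905 and 0.908) and Stat3 (1.08 and 1.08) differed little with Havcr1 in the same cells. In S3 the cells with Havcr1 had a median of 26308 UMIs at full depth against 14393, and the part of depth in these ratios was not tested.

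**Figure D5:**
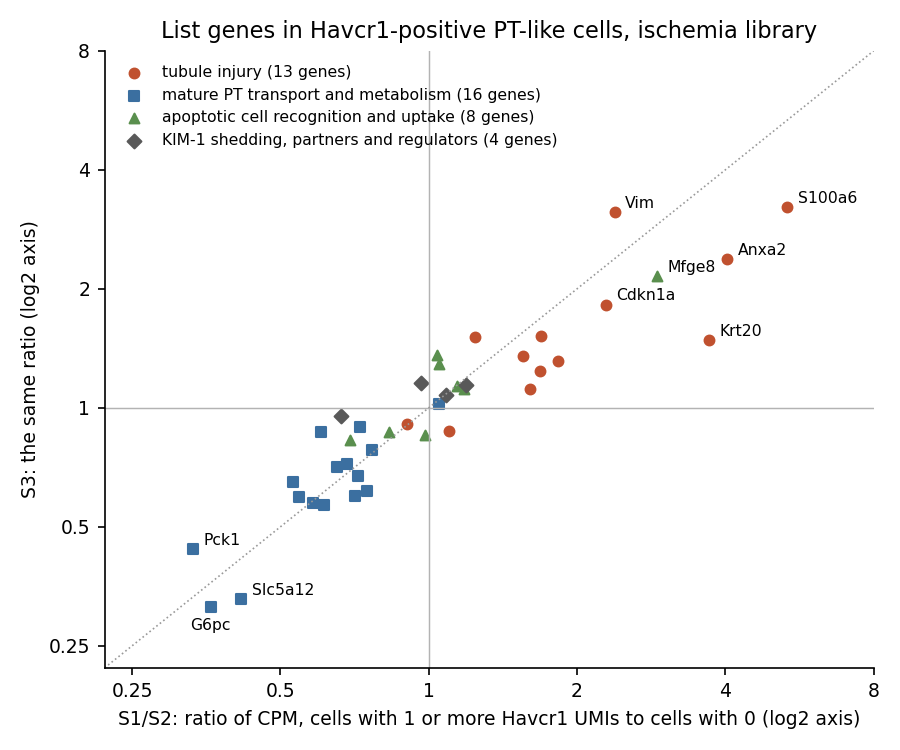
Ratio of CPM in ischemia PT-like cells with 1 or more Havcr1 UMIs after thinning to cells with 0, in S1/S2 (horizontal, log2 axis) and S3 (vertical, log2 axis), for genes of 4 lists measured in both segments. Injury genes such as S100a6 (5.34 and 3.22) lie toward the upper right, mature PT genes such as G6pc and Pck1 toward the lower left, and the dotted line marks equal ratios.

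In the control library the 24 PT-like cells with a Havcr1 UMI after thinning were compared with the 3741 with none in the same way. They were few, with 488505 UMIs in all, and had a median of 18812 UMIs per cell against 14815. Of 10 measured injury genes 7 were at least 2-fold higher, where 11.1% of 10043 genes were higher and 8.22% lower. Position differed too, with a median S3 share of 0.808 in the 24 cells against 0.375. S1/S2 genes were at least 2-fold lower in 4 of 6, and of 7 S3 genes 2 were higher and 1 lower. The part of position in these ratios was not tested. Plin2 was at a ratio of 7.5, Tnfrsf12a at 6.86 and S100a6 at 5.70. Cd44 was at 5.74, and its ratio without the 1 cell named above was not computed. The 24 cells and the 11 with 10 or more UMIs were both picked by Havcr1 from the same control PT-like cells. Both sets can overlap, so that genes high in each are not separate observations. Stat3 (2.27) and Adam10 (2.11) passed 2-fold, as did Timd2 (2.54).

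The genes whose levels were most like those of Havcr1 were found over 22 groups, the named types with at least 50 cells in each library, among 12478 genes. By Pearson's r of log2(CPM + 1) they were Fgb (0.916), Fga (0.916), Eif6 (0.877), Fgg (0.876), Krt20 (0.829), 1110038B12Rik (0.793), Pin4 (0.785), Txn1 (0.755), Rars (0.754) and Acat3 (0.753). Groups of 1 library share its free RNA and depth, so that these are descriptions. Fgb, Fga and Fgg encode the chains of fibrinogen. In PT-like cells Fgb was at 22.2 and 550 CPM, Fga at 54.7 and 610 CPM and Fgg at 73.8 and 871 CPM in control and ischemia. They did not share the level of Havcr1 in thin limb-like cells of the ischemia library, where Fgb was at 17 CPM. Over the 11 ischemia groups alone the most alike gene was 1700016C15Rik, with r = 0.974, and Fgb had r = 0.558.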

How the data were processed

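The authors sequenced 2 droplet scRNAseq libraries and, per the labels, processed them with Cell Ranger 7.0.0 against mm10. They deposited filtered matrices of raw UMI counts per gene and cell, and no cell annotation was used. Cells were kept with 200 or more genes, a total of 500 to 150000 UMIs and a mitochondrial share of no more than 55%. Seurat 5.3.0 was run under R 4.3.3 (2000 variable genes with Havcr1 taken out, anchor integration, 30 principal components, resolution 0.3, seed 42). Clusters were named from marker lists, needing 3 or more markers with at least 10 UMIs. PT-like cells were called S1/S2 or S3 at a scaled S3 share of 0.5 with at least 3 list UMIs. Scrublet (scanpy 1.11.5) marked 0 cells, so that doublets were not removed. Counts were summed per library and type as CPM (Python 3.11.15, numpy 2.4.6, scipy 1.17.1, pandas 2.3.3, matplotlib 3.10.9) with exact 95% Poisson, Clopper-Pearson or conditional binomial intervals. The limit for a count of 0 was 3 UMIs. A gene was measured at 100 UMIs over the cells compared (200 within the ischemia or control library), and called at 2-fold; with 1 library per condition no test was run. Genes named were Havcr1, genes of the lists, the 10 most alike by r (500 UMIs or more), and the 10 highest and 10 lowest ratios in Havcr1-high cells. Havcr1 and the lists were chosen with earlier results of these data known. The calculations were tested on simulated data.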

Additional observations from a re-analysis of the deposited data

Results flagged for a closer look

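Havcr1 was also found in barcodes and clusters that entered no comparison. Barcodes removed by the limits on genes, UMIs and mitochondrial share were at 104 CPM (98.9 to 109.6, 1482 UMIs) in the ischemia library against 1.22 CPM (22 UMIs) in the control, with 24.8 Havcr1 UMIs per 1000 PT-list UMIs in the ischemia library. With mitochondrial UMIs left out of the totals, the removed barcodes were at 351 CPM (ischemia) and 4.33 CPM (control). All kept cells were then at 334 and 6.65 CPM. The unnamed cluster 0 was at 463 CPM (445 to 480) in the ischemia library against 9.63 CPM in the control, and its thinned share of cells with a Havcr1 UMI was 27.7%. The unnamed cluster 4 was at 89.8 CPM (80.3 to 100.0) against 1.57 CPM. These were picked out because each lies outside the cells compared and above the control level. The differences were not tested, since each condition was 1 library.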

How the results depend on the processing

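The main values were a ratio of ischemia to control in PT-like cells of 58.0, S3 to S1/S2 ratios of 6.78 (control) and 4.09 (ischemia), a PT-like share of 82.3% of the ischemia library's Havcr1 UMIs, and 23.3% of thinned ischemia PT-like cells with a UMI. Over 68 values under other settings 31 stayed within their interval and 37 moved. A change of direction was scored only where a ratio crossed 1, and 0 did so. Shares could not be scored in this way. The order of the segment ratios between the libraries was not scored either. The ischemia segment ratio was the higher one without integration, without the top 1% of cells and with per-cell means. With a mitochondrial limit of 25% the ratio was 44.4, the ischemia segment ratio 3.59, the PT-like share 81.4% and the thinned share 26.6%. A minimum of 1000 UMIs gave a PT-like share of 87.8%, resolution 0.6 gave 81.0%, and Havcr1 kept among the variable genes gave 82.7%. Without integration the segment ratios were 4.21 and 6.31, the PT-like share 6.70% and the thinned share 17.4%, and with its unnamed cluster counted as PT-like (added after seeing the data) the ischemia segment ratio was 3.97, the share 79.2% and the thinned share 26.1%. A marker gate in place of clusters gave 63.8, 5.41 and 67.9% for the ratio, the ischemia segment ratio and the share. Dropping the top 8% by doublet score (added) gave a share of 84.5% and lowered the TAL-like level from 34.3 to 28.2 CPM and the EC-like level from 104 to 91.3 CPM. With mitochondrial UMIs left out of the totals the ischemia segment ratio was 3.95. Without the top 1% of cells the ratio was 148 and the segment ratios 2.89 and 3.79. A mean of per-cell CPM gave 43.7, 3.02 and 3.59. Segment shares of at most 0.25 or at least 0.75 gave 15.2 and 6.60, a 3-way call 4.57 in ischemia, and sub-cluster naming 13.9 and 8.62. That naming counted all cells of sub-cluster 2 as S3, so that it did not compare segments alone. Thinning to 2000 UMIs gave 35.0% and no thinning 68.1%. Without PT sub-cluster 2 (added) the values were 46.4, 4.78, 4.70, 46.6% and 13.8%. The cause of these shifts was not tested, except that fewer cells or deeper cells enter by construction. Leaving out doublets by the caller's own calls could not be run, as it marked none. No paired analysis was possible because each group has 1 library, which also leaves no replicate to leave out. Precision for Havcr1 was lower in the control than in the ischemia library, as its PT-like cells had 515 Havcr1 UMIs among 71779895 UMIs.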
